A study of Homo sapiens with 12 samples.

Results

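The 2 single exposures of the study were compared with each other: 3 libraries of SHI-1 cells exposed to disulfiram with copper (DSF) and 3 libraries of SHI-1 cells exposed to niclosamide (NSM), chosen by their labels, 6 of the 12 RNA-seq libraries of the series. SHI-1 is a human acute myeloid leukemia line that carries the MLL-AF6 fusion. All 12 libraries were from cells exposed for 16 h, to DMSO alone, to 0.3 µM disulfiram with 1 µM copper, to 5 µM niclosamide, or to 5 µM niclosamide with 0.3 µM disulfiram and 1 µM copper (DSF+NSM), with 3 libraries from independent experiments in each group. The drugs were given at different molar doses and only the DSF groups are labelled with copper, so a difference between DSF and NSM is one between these exposures and not between the drugs at a matched dose, and the part of the copper cannot be told apart from that of disulfiram. Whether copper was also added to the other groups is not given in the sources used here. The 3 DMSO libraries gave the level from which each exposure moved, and DSF+NSM libraries entered the filter on low values and the shared estimate of spread. All cells were of 1 line, so the spread is that between experiments in SHI-1 cells.

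Disulfiram is an inhibitor of aldehyde dehydrogenases used in alcohol dependence, and its metabolite forms a complex with copper that carries the metal into cells and disturbs the clearance of ubiquitinated proteins by the p97-NPL4 segregase. Niclosamide is an anthelmintic salicylanilide that carries protons across membranes and so uncouples mitochondrial respiration from ATP synthesis. Cells answer such insults with separate transcriptional programmes. Excess metal activates MTF1, which switches on metallothioneins through metal response elements, misfolded protein frees HSF1, which binds heat shock elements of chaperone genes, oxidised or electrophile-modified KEAP1 releases NRF2, and phosphorylation of eIF2α slows translation while raising ATF4, which drives the integrated stress response.

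Values were normalized counts, summing to 14.9 to 15.3 M (M, 1e6) in DSF libraries and 16.5 to 17.5 M in NSM libraries, and differences are given as DSF minus NSM on the log2(normalized count + 1) scale. Genes were called at an adjusted p under 0.05 in a limma fit across all 13502 genes that passed the filter on low values, of 14866 listed. NSM replicate 3 stood apart from the other NSM libraries. It was at least 2-fold above both of them for 1217 genes and at least 2-fold below both for 1631, whereas the other DMSO, DSF and NSM libraries were so far above for 51 to 142 genes and below for 78 to 161. Across genes its Spearman correlations with NSM replicates 1 and 2 were 0.936 and 0.948, it listed 1157 genes at 0 against 941 and 645, and ribosomal RNA genes took 0.643% of its sum against 3.69% and 2.80%. NSM replicate 2 held B-lineage transcripts that were low in the other libraries of the comparison, with PAX5 at 161 normalized counts (1.29 to 12 in the other 5). The B cell markers PAX5, CD79A and MS4A1 summed to 194 there and to 19 to 42.2 in the other DMSO, DSF and NSM libraries, with MS4A1 at 0 in all of them. Their part in the results was not tested, and without NSM replicate 2 the number of genes called between DSF and NSM was 5923. All 10 myeloid markers looked up were listed, with MPO between 14453 and 62640, SPI1 between 4477 and 8813 and CD33 between 645 and 974 in the DMSO, DSF and NSM libraries. Of T cell markers, CD3E was listed at 80.7 to 90.6 in DSF and 109 to 167 in NSM libraries, and CD3D and CD2 at under 26 in all of them. Ribosomal RNA genes took 3.72% to 4.98% of the sums of DSF libraries. In bulk RNA, fewer cells that express a gene cannot be told apart from less of its RNA in each cell. The library kit does not keep strand, so reads of a gene cannot be told apart from those of an overlapping gene on the other strand, which was the case at exons of 86 of the 213 genes that the naming rule chose, FTH1, NQO1, DDIT3, MCM2, HOXA9 and HOXA10 among them.

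DSF and NSM libraries differed at 5991 of 13502 genes, or 44.4%. Of these, 3159 were higher in DSF (23.4% of genes tested) and 2832 higher in NSM (21%). The difference reached 1 on the log2 scale for 2855 called genes (21.1%), 1783 of them higher in DSF and 1072 higher in NSM. Without NSM replicate 3 the fit called 7048 genes, 3557 higher in DSF and 3491 higher in NSM, and 5558 of the 5991 were called again in the same direction and 0 in the opposite one. The 3 DSF and the 3 NSM libraries did not overlap at 7393 genes, or 54.8%. The median difference over all genes was 0.04. Scaling the libraries to equal sums moved that median to 0.21 and the calls to 4109 of 6021 higher in DSF. Small differences therefore depend on the scaling, and the lists below are read against these medians. Their counts are read against the shares over all genes, 23.4% higher in DSF and 21% higher in NSM. Against DMSO, 2405 genes were called after DSF, 1601 higher (11.9%) and 804 lower (5.95%), and 6635 after NSM, 3430 higher (25.4%) and 3205 lower (23.7%). With each comparison fitted on its own groups, 7289 genes were called after DSF and 5079 after NSM. Which exposure had more calls against DMSO therefore depends on the fit.

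**Figure D1:**
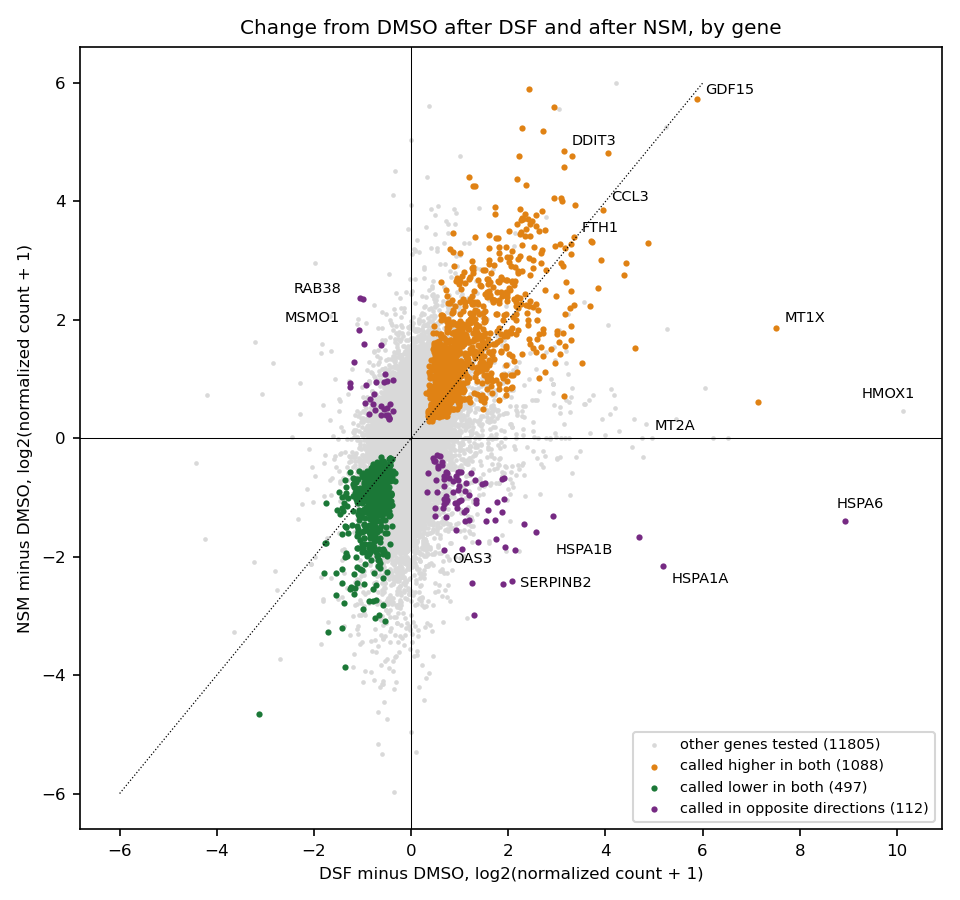
Each point is 1 of 13502 genes, with its change from DMSO after DSF on the x axis and after NSM on the y axis, both on the log2(normalized count + 1) scale. Both axes share the 3 DMSO libraries, and the dotted line marks equal change. HMOX1 and MT2A lie far to the right at little change after NSM, DDIT3 and GDF15 lie high on both axes, and HSPA6, HSPA1A and HSPA1B lie at the lower right.

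HSPA6, HMOX1 and HSPA1A had the highest differences among the genes that passed the limits for naming, and MT1F, HSPA1B, CRYAB and MT1X were among the 12 highest. MT2A was also higher in DSF, though not among these 12. The upstream sequences of MT2A, HSPA6, HSPA1A, ASNS and MCM2 are shown because the letters that MTF1, HSF1, ATF4 and E2F factors bind are known. They are RefSeq promoters of the GRCh38.p14 build, from 250 bases before to 50 after a start that RefSeq lists for the gene (for ASNS, a start inside the gene's annotated span), in lower case, with capitals for the metal response element core (TGCACNC or TGCGCNC) in MT2A, the heat shock element (GAANNTTC or TTCNNGAA) in HSPA6 and HSPA1A, the C/EBP-ATF response element (TGATGNAA) in ASNS, and the E2F site (TTTCGCGC or TTTGGCGC) in MCM2. Both strands were searched, and overlapping matches run together.
MT2A (chr16:56608334-56608633, plus strand): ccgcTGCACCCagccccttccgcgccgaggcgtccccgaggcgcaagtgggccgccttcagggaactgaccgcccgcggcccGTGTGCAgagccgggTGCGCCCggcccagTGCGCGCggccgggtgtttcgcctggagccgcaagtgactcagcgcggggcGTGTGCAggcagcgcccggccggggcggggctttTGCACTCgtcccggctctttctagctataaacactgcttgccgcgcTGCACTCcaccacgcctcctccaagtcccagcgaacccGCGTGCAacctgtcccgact
HSPA6 (chr1:161524290-161524589, plus strand): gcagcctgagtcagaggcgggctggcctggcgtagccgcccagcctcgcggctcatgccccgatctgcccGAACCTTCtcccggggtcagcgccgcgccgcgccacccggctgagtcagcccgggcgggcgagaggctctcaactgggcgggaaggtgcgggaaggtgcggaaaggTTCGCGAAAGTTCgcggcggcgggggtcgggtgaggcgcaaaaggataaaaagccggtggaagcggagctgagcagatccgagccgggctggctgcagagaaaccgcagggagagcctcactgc
HSPA1A (chr6:31815293-31815592, plus strand): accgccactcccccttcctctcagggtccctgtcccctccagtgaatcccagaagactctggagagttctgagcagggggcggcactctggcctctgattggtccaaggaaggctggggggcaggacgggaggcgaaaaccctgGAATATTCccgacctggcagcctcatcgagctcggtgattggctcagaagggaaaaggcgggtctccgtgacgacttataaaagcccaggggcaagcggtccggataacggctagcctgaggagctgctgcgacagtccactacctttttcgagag
ASNS (chr7:97872359-97872658, minus strand): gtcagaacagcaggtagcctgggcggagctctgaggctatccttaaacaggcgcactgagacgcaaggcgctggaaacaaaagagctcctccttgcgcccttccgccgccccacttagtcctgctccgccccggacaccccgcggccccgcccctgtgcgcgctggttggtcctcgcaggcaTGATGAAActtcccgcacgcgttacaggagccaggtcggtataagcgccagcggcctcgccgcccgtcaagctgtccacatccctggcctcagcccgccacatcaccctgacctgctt
MCM2 (chr3:127598161-127598460, plus strand): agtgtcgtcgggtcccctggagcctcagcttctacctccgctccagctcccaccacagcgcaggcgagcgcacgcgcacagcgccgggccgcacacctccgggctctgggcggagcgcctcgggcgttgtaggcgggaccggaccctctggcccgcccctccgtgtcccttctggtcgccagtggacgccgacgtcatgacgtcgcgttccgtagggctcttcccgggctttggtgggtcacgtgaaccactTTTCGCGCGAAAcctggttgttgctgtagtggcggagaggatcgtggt

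The MT2A promoter held 8 matches to the metal response element core, HSPA6 3 heat shock elements, HSPA1A 1, ASNS 1 C/EBP-ATF element and MCM2 2 E2F sites. Of all 27305 promoters of this length, 29.3% held the metal response element core, 13.7% a heat shock element, 3.67% a C/EBP-ATF element and 1.18% an E2F site. Among 10398 promoters matched to genes tested, the shares were 38.7%, 10.3%, 1.67% and 2.23%. The core was present in 5 of 6 matched metal response promoters, the heat shock element in 10 of 23 promoters of the heat shock list, the C/EBP-ATF element in 3 of 20 promoters of the integrated stress response and the E2F site in 8 of 18 replication promoters. The sterol response element (TCACNCCAC), in 1.15% of all promoters, was in 1 of 18 promoters of cholesterol genes. A match describes the letters of this window only.

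Metallothioneins, small cysteine-rich proteins that bind zinc and copper, separated the 2 exposures. MT2A, the most abundant of them, was at 43364, 58169 and 43983 normalized counts in DSF libraries, at 2362, 1953 and 1694 in NSM libraries and at 1750, 1710 and 1576 in DMSO libraries. NSM libraries lay near the DMSO level and the DSF libraries more than an order of magnitude above it, a difference of 4.60 (95% interval 4.27 to 4.92, adjusted p = 1.56e-09). MT1X was at 19096, 26720 and 20782 in DSF and 426, 352 and 552 in NSM libraries against 131, 118 and 109.8 in DMSO libraries, so that it rose after both exposures, by 7.51 after DSF and 1.86 after NSM. MT1F differed by 6.52 (95% interval 6.07 to 6.98, adjusted p = 1.56e-09), from 3416, 4931 and 4488 in DSF to 46.1, 36.8 and 53.7 in NSM libraries. MT1B was listed at 34.7, 37.8 and 20.7 in DSF libraries and at 0 in all 3 NSM and all 3 DMSO libraries, as was MT1H, so no fold is given for them. SLC30A1, which exports zinc and is switched on by MTF1, was at 1388, 1897 and 1135 in DSF and 123, 79.4 and 144 in NSM libraries, a difference of 3.67 (95% interval 3.19 to 4.15, adjusted p = 1.14e-06). MTF1 itself rose after both exposures, by 0.59 after DSF and 0.61 after NSM. Of 9 members of the metal response list tested, 7 were called higher in DSF and 0 higher in NSM, with a median difference of 4.26 against 0.04 for all genes. MT1B, MT1E, MT1G and MT1H passed the filter on low values through DSF and DSF+NSM libraries alone, so the count and the median over these 9 are no support for a direction. Of the other 5 members, 4 were called higher in DSF and 0 higher in NSM. The metallothionein genes are close copies of each other, and reads may be split between them. The list's median rests in part on genes at or near 0 in NSM libraries, whose values depend on the pseudocount. Of 16 genes of copper uptake, export and delivery, 2 were higher in DSF and 3 higher in NSM, or 3 and 5 without NSM replicate 3. Over all genes tested and with all libraries, 23.4% were higher in DSF and 21% higher in NSM. SLC31A1, the copper importer, was -0.38 and COX17, which delivers copper to cytochrome oxidase, -0.52, both higher in NSM, whereas SCO1 was higher in DSF by 0.87 and SOD1, a copper-zinc enzyme, by 0.56.

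The inducible HSP70 genes moved in opposite directions after the 2 exposures. HSPA6, an HSP70 gene that is nearly silent in unstressed cells, was at 10639, 12539 and 4433 normalized counts in DSF libraries and at 6.87, 4.84 and 5.11 in NSM libraries, with 17.7, 20.4 and 11.8 in DMSO libraries. All NSM libraries were below all DMSO libraries and all DSF libraries far above, a direct difference of 10.32 (95% interval 9.52 to 11.12, adjusted p = 3.86e-09). HSPA1A was at 4939, 5500 and 1801 in DSF and 37.3, 20.3 and 12.8 in NSM libraries, against 121, 104 and 77.4 in DMSO libraries. HSPA1B was at 35831, 42318 and 16974 in DSF and 428, 362 and 303 in NSM libraries, against 1219, 1201 and 1040 in DMSO libraries. Both inducible HSP70 genes thus rose after DSF, by 5.19 and 4.68, and fell after NSM, by 2.16 and 1.67 on the log2 scale. The pair encode nearly the same protein from neighbouring genes on chromosome 6 (chr6:31815543-31817942 and chr6:31827738-31830254), and reads may be split between them. DSF replicate 3 was the lowest DSF library for all 3 genes, at less than the other DSF libraries and still above every NSM library. DNAJB1, the HSP40 partner of HSP70, was at 24135, 29517 and 13447 in DSF and 3726, 2903 and 2284 in NSM libraries, and BAG3, an HSP70 cochaperone, at 1785, 2270 and 1053 and 300.4, 261 and 291, with differences of 2.87 and 2.51. For these 2 genes NSM libraries were not called against DMSO, at 0.09 and 0.01. CRYAB, a small heat shock protein, was listed at 105, 112 and 32.7 in DSF libraries and at 0 in all NSM and DMSO libraries. Of 26 genes of the heat shock list, which holds chaperones, the factors HSF1 and HSF2 and the reductase CRYZ, 14 were higher in DSF and 2 higher in NSM (HSF2, a heat shock factor, and the HSP110 gene HSPA4), with a median difference of 0.63. CRYAB passed the filter on low values through DSF and DSF+NSM libraries alone. Against DMSO, 6 rose and 4 fell after DSF, and 2 rose and 11 fell after NSM.

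HMOX1, which breaks down heme and is induced through NRF2 and by metals, separated the exposures by almost as much as HSPA6. It was at 12750, 16708 and 7614 normalized counts in DSF libraries, at 18.7, 11.6 and 11.5 in NSM libraries and at 9.72, 8.31 and 10.8 in DMSO libraries (chr22:35381096-35394207). The difference was 9.65 (95% interval 9.10 to 10.21, adjusted p = 5.36e-10), and NSM libraries differed from DMSO by 0.47 (adjusted p = 0.151). The other NRF2 targets did not all move as HMOX1 did. NQO1, a quinone reductase, was at 464, 419 and 452 in DSF and 100.0, 115 and 91.5 in NSM libraries, above and below its 201, 233 and 263 in DMSO libraries. PIR, an iron-binding nuclear protein, also went in opposite directions from DMSO, by 1.13 after DSF and -0.76 after NSM. FTH1, the ferritin heavy chain that stores iron, rose after both, and AKR1C1, an aldo-keto reductase, was higher in NSM. Of 26 NRF2 targets tested, 11 were higher in DSF, 3 higher in NSM (AKR1C1, TKT and PGD) and 12 not called, with a median difference of 0.27. Against DMSO, 14 rose and 1 fell after DSF, and 10 rose and 8 fell after NSM. Over all genes tested, 11.9% rose and 5.95% fell after DSF, and 25.4% rose and 23.7% fell after NSM. In this list, 9 genes rose from DMSO after both exposures. SQSTM1, an autophagy receptor, was among these 9, at 11999, 13717 and 8140 in DSF, 11238, 9957 and 6868 in NSM and 2119, 2147 and 2076 in DMSO libraries.

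**Figure D2:**
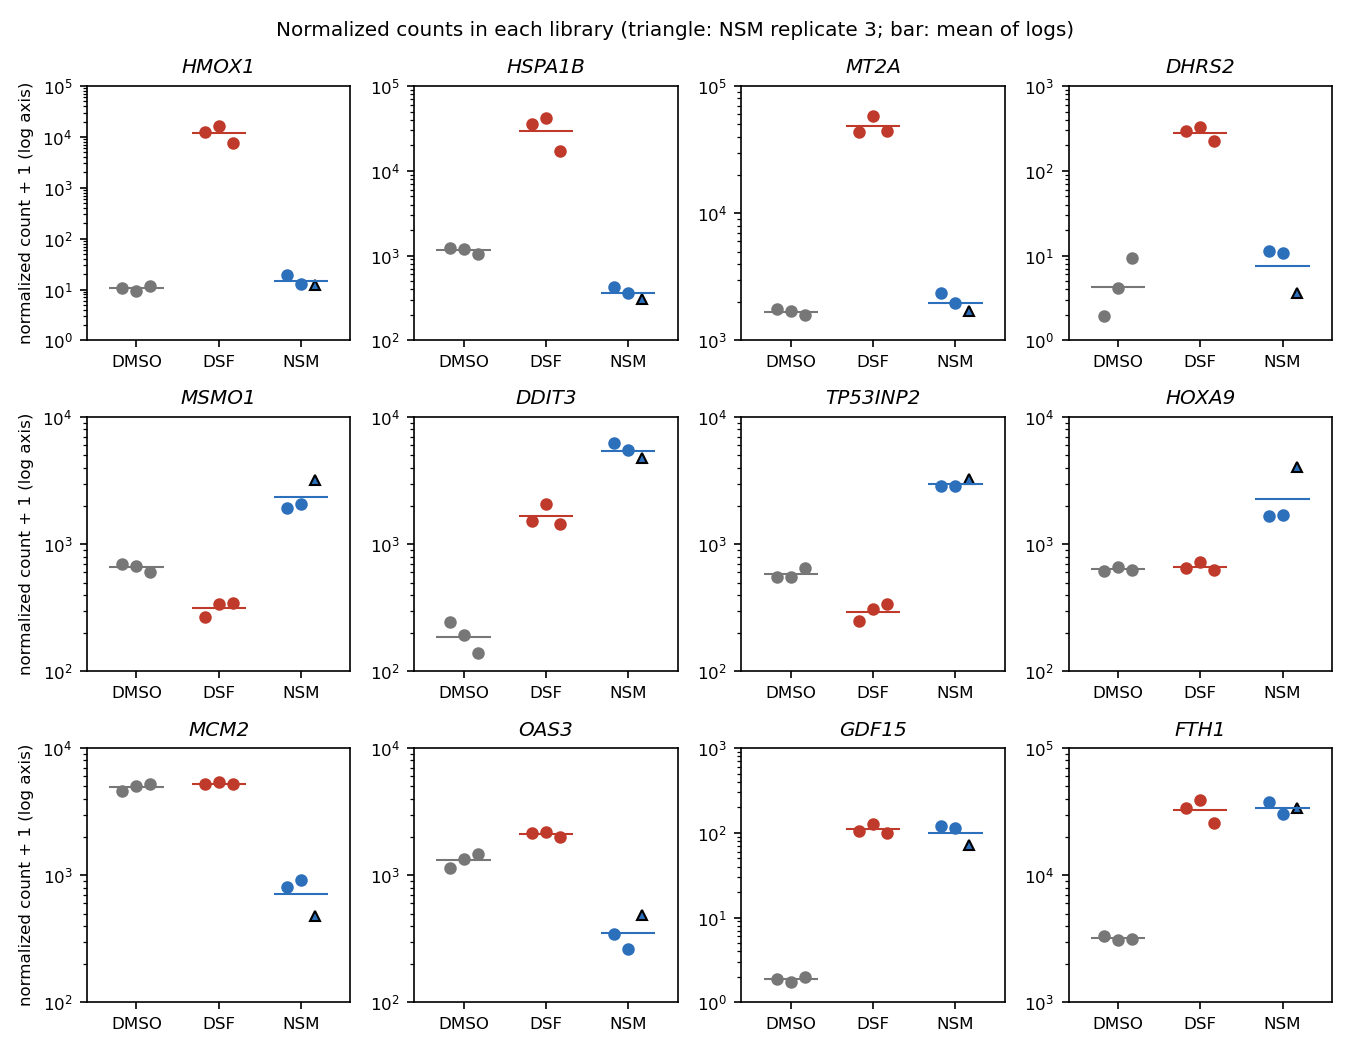
Normalized counts plus 1 on log axes for 12 genes in the 3 DMSO, 3 DSF and 3 NSM libraries, with a bar at the mean of the logs and a triangle for NSM replicate 3. HMOX1, HSPA1B, MT2A and DHRS2 are high in DSF libraries alone, MSMO1, TP53INP2 and HOXA9 are high in NSM libraries, DDIT3 is raised in both and more in NSM, MCM2 and OAS3 are low in NSM, and GDF15 and FTH1 are raised alike.

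Other genes among the 12 highest in DSF over NSM were DHRS2, a mitochondrial reductase, TEX19, RTEL1-TNFRSF6B, SCLY and RBM14-RBM4. DHRS2 was at 290.0, 331 and 226 in DSF and 10.4, 9.61 and 2.66 in NSM libraries, a difference of 5.20 (95% interval 4.05 to 6.35, adjusted p = 2.18e-05). TEX19, a gene of the germ line, was at 344, 398 and 184 and 4.91, 10.7 and 7.67. Neither was called against DMSO after NSM. SCLY and RBM14-RBM4 were instead lower after NSM than in DMSO and not called after DSF, with SCLY at 171, 180.1 and 181 in DSF, 47.1, 0 and 0 in NSM and 207, 234 and 240.2 in DMSO libraries. RTEL1-TNFRSF6B was listed at 90.2, 86.6 and 97 in DSF libraries and at 0 in all NSM and DMSO libraries. DHRS2, TEX19 and RTEL1-TNFRSF6B passed the filter on low values only through DSF or DSF+NSM libraries. Their values are thus a description and no support for a direction. RTEL1-TNFRSF6B and RBM14-RBM4 are read-through genes that share exons with their neighbours, as SCLY does with UBE2F-SCLY, so their counts depend on how reads were assigned.

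Genes of DNA replication were lower in NSM than in DSF. Of 22 tested, 21 were called higher in DSF and 0 higher in NSM, with and without NSM replicate 3, and the median difference was 1.62. Against DMSO, 20 fell after NSM and 2 after DSF. MCM2, a subunit of the replicative helicase, was at 5196, 5368 and 5190 normalized counts in DSF, 814, 912 and 476 in NSM and 4626, 5045 and 5237 in DMSO libraries. DSF libraries overlapped those of DMSO and every NSM library was below both, a difference of 2.89 (95% interval 2.42 to 3.36, adjusted p = 3.09e-06). CCNE1, the cyclin that drives entry into S phase, differed by 2.52, CCNE2 by 2.45, the flap endonuclease FEN1 by 2.42 and the sliding clamp PCNA by 1.96. PCNA also fell after DSF, by 0.78 on the log2 scale, and after NSM by 2.74. Genes of mitosis were mostly not called. Of 22 tested, 0 were higher in DSF and 3 higher in NSM (UBE2C, CCNA2 and CCNB2), with a median difference of -0.17. CCNB1 differed by -0.15 (95% interval -0.38 to 0.07) and PLK1 by 0.07 (-0.22 to 0.36). Without NSM replicate 3, 4 mitotic genes were higher in DSF and 4 higher in NSM, the median was 0.03 and the difference of CCNA2 went from -0.76 to -0.31.

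Glycolytic genes, interferon-stimulated genes, factors of ribosome biogenesis and part of the myeloid genes were also higher in DSF. Of 22 glycolytic genes, 18 were higher in DSF and 1 (the glucose transporter SLC2A3) higher in NSM, with a median difference of 0.81. PFKP, the platelet isoform of phosphofructokinase, was at 1153, 1018 and 1149 in DSF, 446, 459.6 and 219 in NSM and 1126, 1096 and 1134 in DMSO libraries. NSM replicate 3 was the lowest there, and the difference was 1.63 with it and 1.28 without it. ENO2 differed by 1.58 and PFKFB4 by 1.46, while HK2, at 0.25 (95% interval -0.08 to 0.58), was not called. Of 14 hypoxia-response genes, 4 were higher in DSF and 5 higher in NSM, and the median of -0.29 became 0.09 without NSM replicate 3. The shares over all genes tested were 23.4% and 21%, so calls to both sides are not particular to this list. The peptide hormone gene ADM was at 103, 103 and 62.1 in DSF and 7.85, 3.88 and 6.39 in NSM libraries, on opposite sides of its 40.7, 31 and 37.3 in DMSO libraries. EGLN3, an oxygen sensor, was at 22.2, 14.4 and 31 in DSF and 0, 2.48 and 0 in NSM libraries, and VEGFA, the vascular growth factor, was higher in NSM, by -1.02 on the DSF minus NSM scale.

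Of 21 interferon-stimulated genes, 14 were higher in DSF and 2 (IFIH1 and IRF1) higher in NSM, with a median difference of 1.27, and 9 rose after DSF while 10 fell after NSM. OAS3, which makes the oligoadenylates that activate RNase L, was at 2130, 2172 and 1987 in DSF, 346, 261 and 484 in NSM and 1134, 1337 and 1468 in DMSO libraries. The 3 groups did not overlap, and the direct difference was 2.57 (95% interval 2.15 to 2.99, adjusted p = 3.09e-06). IFIT1, which binds RNA lacking a proper cap, differed by 2.29, OAS1 by 2.33 and MX1, a GTPase against viruses that passed the filter on low values through DSF and DSF+NSM libraries alone, by 2.00. ISG15 was higher in DSF by 1.25 with NSM replicate 3 and by 0.56 without it.

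Of 30 factors of ribosome biogenesis, 18 were higher in DSF and 2 (NPM1 and NOB1) higher in NSM, with a median difference of 0.66. Here both exposures lowered genes, 12 after DSF and 24 after NSM, 10 of them after both. POLR1A, the largest subunit of RNA polymerase I, was at 716, 652 and 680.1 in DSF, 137, 150.1 and 96.3 in NSM and 690.3, 785 and 913 in DMSO libraries, a difference of 2.43, and NOP16 differed by 1.55, UTP20 by 1.28 and NOLC1 by 1.24. Genes of cytosolic ribosomal proteins were on the other side. Of 76 tested, 0 were higher in DSF and 39 higher in NSM, with a median difference of -0.46, and 51 rose from DMSO after NSM. Without NSM replicate 3, 74 of the 76 were higher in NSM. RPL26 differed by -0.98, RPS24 by -0.92 and RPS25 by -0.87, and RPL3, at -0.16, was not called with all libraries and was called without NSM replicate 3, at -0.45, since it was at 76468, 69936 and 39959 in NSM libraries. With equal sums the median of this list was -0.29.

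Myeloid genes were split. Of 28 tested, 17 were higher in DSF and 4 (FCGR1A, CTSG, SPI1 and CD68) higher in NSM, with a median difference of 0.92. S100A8, a calcium-binding alarmin of neutrophils and monocytes, was at 22677, 22861 and 26193 in DSF, 5118, 5032 and 3045 in NSM and 22327, 21557 and 18312 in DMSO libraries, so that the difference of 2.48 (95% interval 1.95 to 3.01, adjusted p = 1.78e-05) came with a fall after NSM. S100A9, its partner, differed by 1.80, and CSF1R, the receptor of macrophage colony-stimulating factor, by 2.56. CD14, a monocyte coreceptor for lipopolysaccharide, rose after both, to 431, 415 and 321 in DSF and 221, 223 and 109 in NSM libraries from 64.8, 54 and 60.1 in DMSO libraries. ITGAM, the integrin chain of mature myeloid cells, was higher in DSF by 0.99.

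Cholesterol synthesis genes were mostly higher in NSM. Of 24 tested, 18 were higher in NSM and 1 (PMVK) higher in DSF, with a median difference of -1.32, and 9 were called in opposite directions from DMSO, lower after DSF and higher after NSM. The enzymes of this pathway are switched on together by SREBP2 when membrane sterols run low. MSMO1, a sterol demethylase, was at 268, 338 and 342 normalized counts in DSF, 1928, 2064 and 3176 in NSM and 692, 678 and 606 in DMSO libraries. The 3 groups did not overlap, with DMSO in the middle, and the difference was -2.89 (95% interval -3.30 to -2.47, adjusted p = 1.35e-06). HMGCS1, which makes HMG-CoA, was at 734, 686 and 686 in DSF and 3196, 3128 and 7037 in NSM libraries, with NSM replicate 3 the highest. CYP51A1, another sterol demethylase, differed by -2.47 and IDI1, of isoprenoid synthesis, by -2.19. Without NSM replicate 3, 20 genes of the list were higher in NSM and 0 higher in DSF.

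**Figure D3:**
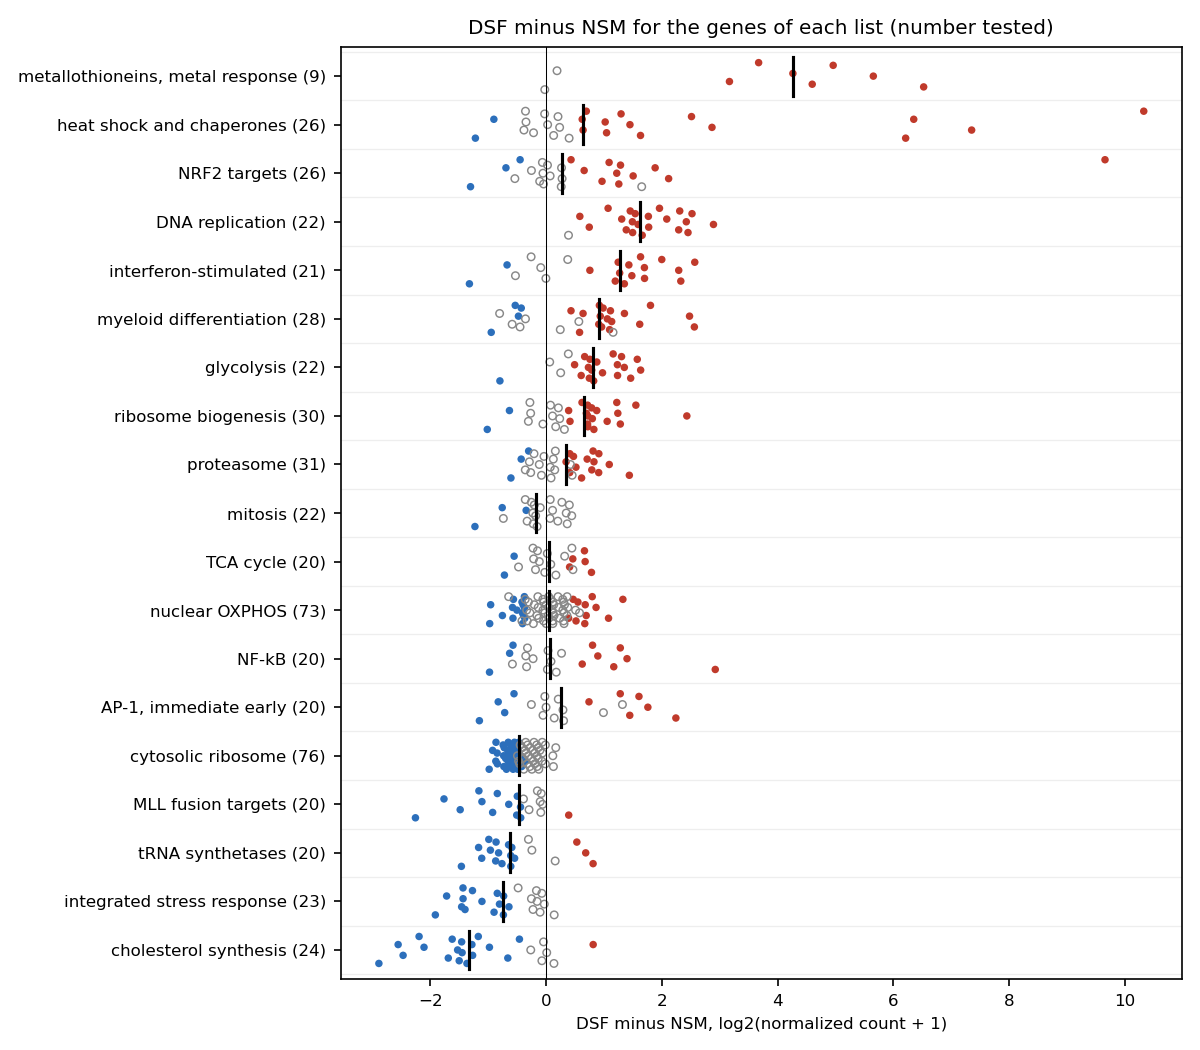
DSF minus NSM on the log2(normalized count + 1) scale for each gene of 19 lists, with the number tested in brackets. Red points were called higher in DSF, blue points higher in NSM, open points were not called, and the black bar is the list's median. Replication genes lie to the right of 0, cholesterol genes almost all to the left, and genes of mitosis around 0.

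The integrated stress response was shared by both exposures and stronger after NSM. Of 23 genes tested, 15 rose from DMSO after DSF and 20 after NSM, and the same 15 rose after both. In the direct comparison 14 were higher in NSM and 0 higher in DSF, with a median difference of -0.74. DDIT3, the transcription factor CHOP, was at 1509, 2074 and 1439 normalized counts in DSF, 6192, 5479 and 4723 in NSM and 244, 193 and 139 in DMSO libraries. The groups were ordered without overlap, DMSO below DSF below NSM, and the direct difference was -1.72 (95% interval -2.15 to -1.29, adjusted p = 5e-05). ATF4 was at 12902, 15226 and 14060 in DSF and 30445, 26500 and 22166 in NSM libraries against 9707, 8833 and 8049 in DMSO libraries. TRIB3, a pseudokinase induced by ATF4, differed by -1.43 and by -1.84 without NSM replicate 3. PPP1R15A, through which eIF2α is dephosphorylated, was at 4428, 5252 and 3450 in DSF and 12917, 10010 and 12230 in NSM libraries. ASNS, asparagine synthetase, was at 3009, 3298 and 3406 in DSF and 8940, 9845 and 7969 in NSM libraries, and XPOT, the tRNA exporter, at 3182, 3041 and 3164 and 8591, 10054 and 18913. XPOT stayed near its DMSO level after DSF, at -0.02 (adjusted p = 0.963). Not every gene of the response was apart, since ATF3 differed by -0.07 (95% interval -0.58 to 0.44) and CHAC1, which degrades glutathione, by -0.10 (-0.68 to 0.47).

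The tRNA synthetases were mostly higher in NSM, and groups of amino acid and endoplasmic reticulum genes were called to both sides. Over all genes tested, 23.4% were higher in DSF and 21% higher in NSM. Calls to both sides are thus not particular to these groups. Of 20 cytosolic aminoacyl-tRNA synthetases, 14 were higher in NSM and 3 (FARSA, VARS and HARS) higher in DSF, with a median difference of -0.63. TARS was at 3029, 3330 and 3070 in DSF and 7353, 6932 and 12712 in NSM libraries, and AARS, at 5198, 5969 and 4930 and 11599, 10218 and 7771, rose after both exposures. GARS differed by -1.17, WARS by -1.11 and YARS by -0.99. Of 17 genes of serine, one-carbon, proline and asparagine synthesis, 7 were higher in NSM and 4 higher in DSF, or 11 and 4 without NSM replicate 3. MTHFD2, of the mitochondrial folate pathway, was higher in NSM by -1.07 on the DSF minus NSM scale, while SHMT1 and ALDH18A1 were higher in DSF by 1.58 and 1.51. PHGDH, the first step of serine synthesis, rose after both and differed by -0.49 (95% interval -0.99 to 0.00, adjusted p = 0.0957), and without NSM replicate 3 it was called higher in NSM, at -0.82. Of 18 genes of the endoplasmic reticulum stress response, 8 were higher in NSM and 3 higher in DSF, with HSPA5, the chaperone BiP, at 17983, 20530 and 19633 in DSF and 36603, 36295 and 45305 in NSM libraries against 11607, 12099 and 12459 in DMSO libraries. Of 13 amino acid transporters, 2 were higher in NSM and 3 higher in DSF, with SLC38A2 at -1.64 and SLC36A1 at 1.61. The transporters higher in NSM numbered 6, and those higher in DSF 4, when NSM replicate 3 was left out.

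The genes highest in NSM over DSF included several low in DMSO. TP53INP2, a nuclear and autophagy protein, was at 2848, 2879 and 3240 normalized counts in NSM, 247, 307 and 335 in DSF and 554, 553 and 655 in DMSO libraries. It fell after DSF and rose after NSM, and the difference was -3.34 (95% interval -3.82 to -2.86, adjusted p = 1.35e-06). RAB38, a small GTPase of lysosome-related organelles, also moved in opposite directions, at 144, 128 and 104 in NSM and 9.91, 11.7 and 10.5 in DSF libraries. REM2, a GTPase, was at 173, 171 and 60.6 and 12, 7.52 and 5.65, and KLHDC7B at 98.2, 116 and 62.6 and 8.1, 12.9 and 3.27. KLHDC7B rose after both exposures, whereas REM2 was called after NSM alone. MS4A14 was at 181, 172 and 463 in NSM and 29.1, 21.6 and 15.1 in DSF libraries, with NSM replicate 3 the highest. OR7D2, listed as an olfactory receptor, was at 78.5, 55.2 and 115 and 4.63, 2.99 and 0, PRR4 differed by -4.93 and KIAA1045 by -3.22. COMMD3-BMI1 and ZNF559-ZNF177 are read-through genes, and COMMD3-BMI1 ranged from 35.3 to 1174 within the NSM libraries, with the highest value in NSM replicate 3. TICAM2 and SDCBP2, at -4.09 and -3.38, were not called without NSM replicate 3, with adjusted p = 0.18 and 0.0961. OR7D2, REM2, KLHDC7B, KIAA1045, PRR4, TICAM2 and COMMD3-BMI1 passed the filter on low values only through NSM or DSF+NSM libraries. Their values are thus a description and no support for a direction.

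MLL fusion targets were more often higher in NSM than in DSF. Of 20 tested, 12 were higher in NSM and 1 (GFI1) higher in DSF, with a median difference of -0.47, and against DMSO 8 rose and 1 fell after NSM while 1 rose and 0 fell after DSF. HOXA9, the homeobox factor that MLL fusions keep on, was at 650.0, 717 and 622 normalized counts in DSF, 1673, 1682 and 4039 in NSM and 612, 659 and 629 in DMSO libraries. DSF and DMSO libraries overlapped and all NSM libraries were above, by a difference of -1.76 (95% interval -2.38 to -1.14, adjusted p = 0.000479), or -1.34 without NSM replicate 3. HOXA4 differed by -2.26, PBX3, a cofactor of HOX proteins, by -1.48, HOXA3 by -1.16 and MEIS1, another cofactor, by -0.92. HOXA10 was at 687, 759 and 807 in DSF and 1130, 981 and 1068 in NSM libraries, a difference of -0.50 (95% interval -0.84 to -0.15, adjusted p = 0.0232). HOXA10 was not called without DSF replicate 1, DSF replicate 2 or NSM replicate 1. HOXA7 was at 179, 165 and 204 and 169.8, 189 and 224, and the difference of -0.08 (95% interval -0.44 to 0.28) was not called. GFI1, a repressor in myeloid differentiation, was higher in DSF by 0.39 (adjusted p = 0.0303). The median over all genes was 0.04 on the same scale, and 0.21 after scaling to equal sums. GFI1 was not called without any 1 DSF library or without NSM replicate 2, and without NSM replicate 3 its difference was 0.25 and 2 genes of the list were higher in DSF. KMT2A, the gene of MLL itself, was at 1608, 1622 and 1567 in DSF, 2588, 2076 and 2817 in NSM and 1166, 1284 and 1312 in DMSO libraries, a difference of -0.63. MYC, a driver of growth genes, was at 4824, 4562 and 5328 in DSF and 2544, 2775 and 2294 in NSM libraries against 6648, 7067 and 7246 in DMSO libraries, a difference of 0.95 (95% interval 0.47 to 1.43, adjusted p = 0.00453). Its antagonist MXD1 was higher in NSM, at -1.31, as was MXI1, at -0.80, or -0.52 without NSM replicate 3.

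Genes shifted alike by both exposures were counted from the 2 comparisons with DMSO, which share the 3 DMSO libraries. In all, 1088 genes (8.06%) were called higher and 497 (3.68%) lower after both, 1585 in the same direction, and 112 (0.83%) in opposite directions. These counts rest on the spread that all libraries share. Without NSM replicate 3 they were 2188, 1483 and 365. The 1585 became 799, 743 and 934 without DMSO replicate 1, 2 or 3, and 838 and 673 without DSF replicate 1 or 2. Being called in both does not make the changes equal. Of the 1088 genes higher after both, 452 also differed between DSF and NSM, 388 of them higher in NSM, and for 634 the 95% interval of the direct difference lay within 1 on the log2 scale. Of the 497 genes lower after both, 165 differed directly, 161 of them higher in DSF, that is, lower in NSM, and 338 had an interval within 1. Without NSM replicate 3 the intervals lay within 1 for 1477 of 2188 and 1069 of 1483. A further 708 genes were called against DMSO after DSF and not after NSM, and 477 of them differed directly. For 4938 genes called after NSM and not after DSF, the direct difference was called at 3684. Which exposure had more calls against DMSO depends on the fit, and the sizes of both these sets depend on it too.

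GDF15, a stress cytokine, had the highest shared rise among the genes that passed the limits for naming. It was at 105, 125 and 98.1 normalized counts in DSF and 119.8, 112 and 71.6 in NSM libraries, from 0.884, 0.756 and 0.98 in DMSO libraries. The DSF and NSM libraries overlapped, with a direct difference of 0.14 and a 95% interval of -0.35 to 0.63. FTH1 was at 34022, 38706 and 25662 in DSF and 37344, 30462 and 33879 in NSM libraries, from 3356, 3068 and 3140 in DMSO libraries (chr11:61964285-61967634, where exons of BEST1 lie on the other strand). Its changes from DMSO were 3.34 and 3.41, and the interval of the direct difference, -0.39 to 0.26, lay within 1. CCL3, a chemokine of monocytes, was at 811, 950.3 and 413 in DSF, 827, 580.4 and 556 in NSM and 56.6, 43.1 and 33.3 in DMSO libraries, and its near copy CCL3L3 differed by -0.57 (-1.11 to -0.03). Reads may be split between the CCL3 genes. CECR2, a bromodomain protein, differed by 0.38 (-0.24 to 0.99). Of the other genes with large shared rises, C5AR1, the receptor of complement C5a, and GDAP1L1 were higher in NSM, by -0.76 and -1.45 on the DSF minus NSM scale, and HES1, a Notch effector, was higher in DSF by 1.58. HES1 was at 109.9, 125 and 80.7 in DSF and 38.3, 32 and 32 in NSM libraries and at 2.65, 1.51 and 3.92 in DMSO libraries. GDF15, CECR2, GDAP1L1 and HES1 were under 10 in all DMSO libraries and passed the filter on low values through exposed libraries alone. The sizes of their rises, and so their ranks, depend on the pseudocount. Their rises from DMSO are thus a description and no support for a direction.

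Among the shared falls, some were equal within 1 and others deeper after NSM. CD46, which protects cells from complement, was at 1823, 1416 and 1673 normalized counts in DSF, 1183, 1359 and 1785 in NSM and 4515, 4226 and 4388 in DMSO libraries, with a direct difference of 0.20 (95% interval -0.21 to 0.60). ZNF780B, a zinc finger protein, was at 87.4, 72.1 and 122 in DSF and 26.6, 36.1 and 29.3 in NSM libraries from 365, 294 and 255 in DMSO libraries, so that it fell further after NSM, by a direct difference of 1.56 (95% interval 1.01 to 2.11, adjusted p = 0.000488). GEN1, a resolvase of Holliday junctions, FANCL, a ubiquitin ligase of the Fanconi pathway, and CHRNA5, a nicotinic receptor subunit, were also lower in NSM, with differences of 1.01, 0.78 and 1.10. GCSH, of the glycine cleavage system, and ODF2L, a centrosomal protein, differed by 0.48 (-0.51 to 1.47) and 0.72 (-0.25 to 1.70). NSM replicate 3 was the highest NSM library for both, and without it they were called lower in NSM, at 1.08 and 1.38. TRNA, a symbol that RefSeq gives to a transfer RNA gene of mitochondrial DNA and that the files list without a position, fell from 85.7, 43.1 and 49 in DMSO libraries to 4.63, 6.97 and 5.45 in DSF and 0, 0.969 and 5.11 in NSM libraries.

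**Figure D4:**
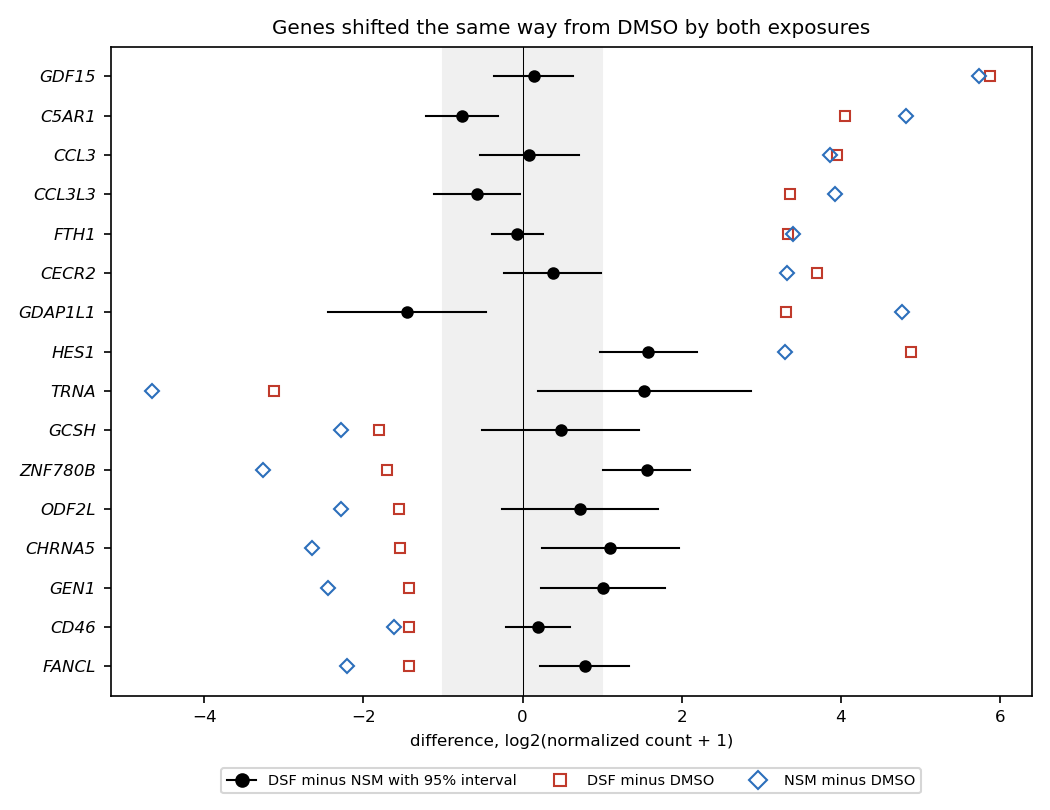
For the 8 genes with the largest shared rises and the 8 with the largest shared falls, black points with lines give DSF minus NSM and its 95% limma interval, red squares DSF minus DMSO and blue diamonds NSM minus DMSO, all on the log2(normalized count + 1) scale. The grey band marks a direct difference within 1. GDF15, CCL3, FTH1, CECR2 and CD46 have their whole interval inside the band, and the points of HES1 and ZNF780B lie to its right.

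Immediate early and NF-κB genes held many shared rises. Of 20 AP-1 and immediate early genes, 17 rose after DSF and 14 after NSM, 14 after both, and in the direct comparison 6 were higher in DSF, 4 higher in NSM and 10 not called. Leaving out NSM replicate 3 gave 11 higher in DSF and 5 higher in NSM. IER5, an HSF1-linked immediate early gene, was at 2465, 2613 and 1074 in DSF, 459, 416 and 340.1 in NSM and 185, 149.6 and 168 in DMSO libraries, and JUN at 1471, 1568 and 938, 463, 419.5 and 394 and 198, 204 and 225. Both were higher in DSF, by 2.24 and 1.60, and FOS, the partner of JUN, by 0.74. EGR1 was called against DMSO after DSF alone and differed by 1.76. Of 20 NF-κB genes, 15 rose after DSF, 12 after NSM and 11 after both, with a median direct difference of 0.06, or 0.00 without NSM replicate 3. NFKBIA, the inhibitor of NF-κB, was higher in NSM, at -0.63, and the chemokine IL8 higher in DSF by 1.40. CCL2, which recruits monocytes, was at 1837, 1681 and 1341 in DSF and 158, 205 and 289 in NSM libraries, on opposite sides of its 419, 434 and 431 in DMSO libraries, a difference of 2.92 (95% interval 2.49 to 3.35, adjusted p = 1.55e-06). Of 17 genes of the STAT pathway, 8 rose after both exposures, 1 was higher in DSF (PIM1, by 1.11) and 5 higher in NSM, among them the kinase JAK2 at -1.73 and BCL3 at -1.18. The number higher in NSM was 8 of 17 without NSM replicate 3.

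Of the 112 genes called in opposite directions from DMSO, 81 were higher after DSF and lower after NSM and 31 the reverse. The direct difference was called for all 112, which follows from how they were chosen and is no further support. Beside the HSP70 genes, ADM and RAB38, the largest were SERPINB2, SH3TC2 and FAM225A. SERPINB2, an inhibitor of plasminogen activators, was at 198, 184 and 133 normalized counts in DSF, 10.8, 6.78 and 3.84 in NSM and 31.8, 36.3 and 52.9 in DMSO libraries, a difference of 4.48 (95% interval 3.58 to 5.38, adjusted p = 1.12e-05). SH3TC2 was at 101, 91.6 and 78.5 in DSF, 3.93, 4.84 and 2.56 in NSM and 41.5, 24.9 and 45.1 in DMSO libraries. FAM225A, a long non-coding RNA, was at 146, 135 and 112 in DSF, 10.8, 10.7 and 11.5 in NSM and 31.8, 46.1 and 37.3 in DMSO libraries. In none of the 3 genes did any 2 of the groups overlap.

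Growth arrest genes were more often higher in NSM, and apoptosis and autophagy genes were called to both sides. The shares over all genes tested were 23.4% higher in DSF and 21% higher in NSM. Of 16 growth arrest genes, 7 were higher in NSM and 2 higher in DSF, and 6 rose after both. Their median difference was -0.62, or -0.38 without NSM replicate 3. CDKN2D, an inhibitor of CDK4 and CDK6, was at 1085, 1265 and 976 in DSF, 4659, 3866 and 2096 in NSM and 343, 317 and 299.6 in DMSO libraries. BBC3, the BH3-only protein PUMA, was at 461, 464 and 359 and 1656, 1574 and 665, with NSM replicate 3 the lowest of its group. CDKN1A, the cell cycle inhibitor p21, and GADD45B were higher in DSF by 0.87 and 1.79. Of 14 BCL2 family genes, 4 were higher in NSM (BBC3, BCL2L2, BMF and MCL1) and 1 higher in DSF (BAX, by 0.90), while BCL2 differed by -0.06 (95% interval -0.40 to 0.28). When NSM replicate 3 was left out, 5 of these were higher in NSM and 2 higher in DSF, BAX differed by 0.51 and MCL1 by -0.32 in place of -0.53. Of 28 lysosome and autophagy genes, 9 were higher in NSM and 8 higher in DSF, and 11 rose after both. WIPI1, which marks forming autophagosomes, was at 319, 392 and 329.8 in DSF, 1465, 1335 and 1552 in NSM and 105, 91 and 119 in DMSO libraries, and MCOLN1, a lysosomal channel, was higher in DSF by 1.58.

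Mitochondrial genes encoded in the nucleus were called to both sides. Over all genes tested, 23.4% were higher in DSF and 21% higher in NSM, so calls to both sides are not particular to these genes. Of 73 genes of the respiratory chain and ATP synthase, 11 were higher in DSF, 15 higher in NSM and 47 not called, with a median difference of 0.05. These became 9 higher in DSF and 26 higher in NSM without NSM replicate 3, with a median of -0.13. ATP5G1 was higher in DSF by 1.33 and NDUFB5 higher in NSM, at -0.97, the called genes farthest to each side. Of 20 TCA cycle genes, 5 were higher in DSF, with OGDH at 0.78, and 2 (DLD and SUCLG1) higher in NSM. Of 76 genes of the mitochondrial ribosome, 15 were higher in DSF and 22 higher in NSM, and 11 fell after both. Of 16 mitochondrial chaperones and proteases, 5 were higher in DSF and 4 higher in NSM, and their median of 0.05 was -0.12 without NSM replicate 3. The protein genes that mitochondrial DNA encodes were not used here. Of 31 proteasome subunits, 14 were higher in DSF and 3 (PSMC6, PSMC1 and PSMA6) higher in NSM, with a median difference of 0.35. Against DMSO, 2 of the subunits rose and 7 fell after DSF, and 3 rose and 16 fell after NSM. PSMD2 and PSMD1, scaffold subunits of the regulatory particle, had the largest differences, at 1.44 and 1.09. PSMD2 was the 1 subunit called in opposite directions from DMSO. It was at 6038, 6472 and 5579 in DSF, 2696, 2338 and 1736 in NSM and 3923, 4069 and 4517 in DMSO libraries. Of 13 Wnt pathway genes, 4 were higher in DSF, among them the coreceptors LRP5 at 1.67 and LRP6 at 1.04, and 1 higher in NSM, AXIN1 at -0.71, against 3 and 2 without NSM replicate 3.

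**Figure D5:**
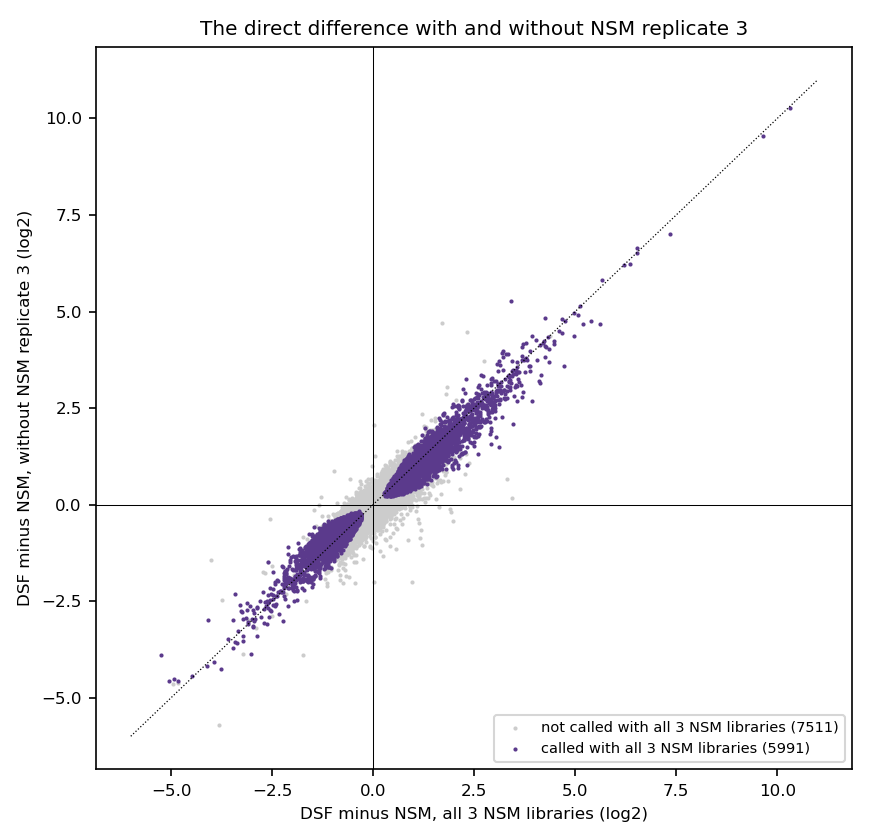
DSF minus NSM for each of 13502 genes with all 3 NSM libraries on the x axis and without NSM replicate 3 on the y axis, on the log2(normalized count + 1) scale, with genes called with all libraries in purple and the dotted line at equal values. The 5991 called genes stay in the lower left or the upper right of the plot, and 5558 of them were called again in the same direction.

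Leaving out NSM replicate 3 changed the direction of 0 called genes and moved the size of some. Among called genes with a difference of at least 1, 2716 of 2855 were called again in the same direction. The differences of HOXA9, HMGCS1 and XPOT were closer to 0, at -1.34, -2.17 and -1.57, and that library was the highest of its group for all 3. Those of TRIB3 and BBC3 were farther from 0, at -1.84 and -1.92. HSPA6 and HMOX1 hardly moved, at 10.27 and 9.54. SDCBP2 and TICAM2 were the named genes whose call was lost without it.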

How the data were processed

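RNA-seq of 12 SHI-1 libraries was analysed, grouped by the labels. The authors deposited normalized counts, a signal on 1 scale for all libraries and not whole reads. Per the submitters' processing notes they used bcl2fastq 2.19, Trimmomatic, Bowtie2, Picard, featureCounts and DESeq2 with hg38, while the study's methods name STAR and Salmon with GRCh38. Only about 30.4% to 31.0% of values above 0 were whole multiples of their library's step (tolerance 0.001), so whole reads could not be rebuilt. The count test planned in case the files held counts was left out. Estimated depth was 12.9 to 19 M reads (M, 1e6) in DMSO, DSF and NSM libraries. The filter on low values asked for 10 or more in 3 or more libraries. log2(value + 1) was fitted by group over all 12 libraries with limma 3.58.1 in R 4.3.3 (trend, robust), and p-values were adjusted by Benjamini-Hochberg over 13502 genes with a threshold of 0.05. The 3 contrasts were DSF minus NSM, DSF minus DMSO and NSM minus DMSO. On simulated data, 45% of genes changed by 1 and 81% of those changed by 2 (log2) were called between DSF and NSM, over 13502 genes with 200 changed, with 5.97% of calls false. Each gene had the same spread in every simulated library, so none stood apart as NSM replicate 3 did. In the data 5991 genes were called, so these shares describe the simulated setting alone. The libraries were labelled as independent experiments, and same-numbered libraries did not all deviate together, so no block entered the fit.

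Named genes were the 12 highest in each direction of the direct comparison with a mean of at least 50 in the higher group and no overlap, 8 shared rises, 8 shared falls, 8 opposite genes, up to 6 members of each list and 7 genes of the MLL programme. Members and lists were chosen with earlier results of these data known. Genes outside that rule, such as SLC30A1, MTF1, MT1H, DNAJB1, BAG3, AKR1C1, PPP1R15A, ATF3, CHAC1 and those in brackets after small counts, were named after their values were seen. Promoters and gene positions were from RefSeq, GRCh38.p14. Alternatives were other scalings, filters and pseudocounts, fewer groups, library weights, the replicate number as a block, and each library left out in turn. A few genes named by the rule are not reported here.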

Additional observations from a re-analysis of the deposited data

Results flagged for a closer look

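A transcript of another lineage, PAX5, appeared in a library outside the comparisons, together with FLT3, which was among the myeloid markers looked up. In DSF+NSM replicate 1, PAX5, a B cell transcription factor, was at 471.3 normalized counts and the receptor kinase FLT3 at 530.4, above the DMSO libraries, where PAX5 was at 1.52 to 6.23 and FLT3 at 9.72 to 14.7. NSM replicate 2 was the other library in which both were raised, with PAX5 at 161 and FLT3 at 164. Their part in the results was not tested.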

How the results depend on the processing

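With library weights, 10369 genes were called between DSF and NSM, 5297 higher in DSF, and 8171 after DSF and 11107 after NSM against DMSO, with 5624 shifted alike (3190 higher, 2434 lower) and 1381 opposite. With only the groups compared in each fit, the counts were 3970 between DSF and NSM, 7289 after DSF and 5079 after NSM. More genes were thus called after DSF than after NSM, the reverse of the fit over all 12 libraries. In the same setting 2752 genes were alike, 1161 lower after both and 356 opposite. With equal sums, 702 genes were higher and 896 lower after both. The cause was not tested.

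Leaving out 1 library gave 4586 to 7048 genes called between DSF and NSM, 2434 to 3557 of them higher in DSF and 2370 to 3380 with a difference of at least 1. Against DMSO it gave 911 to 5551 after DSF and 5421 to 8075 after NSM, 673 to 3671 alike, 558 to 2188 higher and 115 to 1483 lower after both, and 34 to 365 opposite. The highest DSF count came without NSM replicate 3 and the lowest without DSF replicate 2, and it was 1157, 1058 and 1391 without DMSO replicate 1, 2 or 3 and 1164 without DSF replicate 1. The median of ratios and a trimmed mean changed no call of a named gene. Equal sums lost 8 such calls (C5AR1, CCNA2, CCNB2, COX17, HOXA10, MCL1, NFKBIA and SLC31A1), and fitting only the groups compared lost 18 (CCNA2, CCNB2, COX17, MCL1, NFKBIA, SLC31A1, BAX, CDKN1A, CHRNA5, FANCL, FOS, GEN1, GFI1, ISG15, MXI1, SDCBP2, TICAM2 and ZNF559-ZNF177).

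No called gene named in the text changed direction. Uncalled differences changed sign with equal sums for ATF3 (0.0988), BCL2 (0.1127), CCNB1 (0.0172), CHAC1 (0.0680), FTH1 (0.1087), HOXA7 (0.0883) and RPL3 (0.0133), with library weights for FTH1 (0.1338) and GDF15 (-0.0348), and with only the 5 libraries other than NSM replicate 3, a fit added after seeing the data, for CCL3 (-0.0203), GDF15 (-0.0892) and HOXA7 (0.0236). Leaving out 1 library gave ATF3 -0.3201 to 0.1558, CCL3 -0.1530 to 0.4468, CHAC1 -0.4054 to 0.1326, FTH1 -0.1930 to 0.1034, GCSH -0.1435 to 1.0829, GDF15 -0.0892 to 0.2780, HOXA7 -0.1742 to 0.0236 and RPL3 -0.4492 to 0.0189.

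The calls of CCNA2, CHRNA5, GEN1 and SLC31A1 were each lost without any 1 DMSO library and without any 1 DSF library. Without some DSF library, calls were also lost for BAX, CCNB2, COX17, FANCL, FOS, GDAP1L1, GFI1, HOXA10, ISG15, C5AR1, MCL1, NFKBIA, COMMD3-BMI1, SDCBP2 and TICAM2, and without NSM replicate 1 or 2 for CHRNA5, FANCL, FOS, GDAP1L1, GEN1, GFI1, HOXA10, SDCBP2, SLC31A1 and TICAM2. Same-numbered libraries correlated from -0.06 to 0.28 in their deviations from group means. A replicate block gave 6208 calls between DSF and NSM and moved no count by over 1.5 times. A lone pair of libraries after leaving 1 out was assumed to vary like the other groups. At the depth of these libraries low genes carry the widest intervals, and a difference that was not called is not shown to be absent.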
